A study of Mus musculus with 10 samples.

Results

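The clustered core and linker histone genes of the mouse are described here in right atrial RNA from mice labelled Tbx5 mutant and control. All genes of the deposited table whose name starts with Hist1h, Hist2h, Hist3h or Hist4h were taken, which gave 68 genes of the 23337 in the table. By the second part of the name they fall into 6 genes of the linker histone H1, 18 of H2A, 19 of H2B, 12 of H3 and 13 of H4. The family was picked because its genes are among those with the largest difference between the 2 labels, so that its values in that contrast are given as a description without a test.

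RNA of 10 mice was sequenced, 1 library per mouse. The mice labelled control were M1, M2, F1 and F2, and the mice labelled Tbx5 mutant were M1, M2, M3, F1, F2 and F3, where the letter is the labelled sex. Per the labels, the mice were of mixed strain and the Tbx5 mutant mice carried a tamoxifen-inducible Cre recombinase under the ubiquitous R26 promoter, which removes exon 3 of Tbx5 in all cell types and not in cardiomyocytes alone. Per the treatment text, which is the same on all 10 records, tamoxifen was given at 0.167 mg per day on 3 days, and the atrial appendages were taken 1 week later. The labels do not say which alleles the control mice carried. Ages are given as 8 to 10 weeks in one field of the labels and as 6 to 8 weeks in another, and the labels describe both a kit for polyadenylated RNA and the sequencing of total RNA after removal of ribosomal RNA. Globin RNA was depleted before the libraries were made.

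Core histones H2A, H2B, H3 and H4 form the protein spool that DNA is wound around, and H1 binds the DNA between spools. Dividing cells make most of their histones while DNA is copied, from intronless genes that lie in clusters, and the mRNAs of these genes end in a short stem-loop in place of a poly(A) tail. The stem-loop is bound by the protein made from Slbp. In tissue of the adult heart, where most cardiomyocytes no longer divide, histone protein is also made from single genes outside the clusters, such as H3f3b and H2afz, whose mRNAs carry a poly(A) tail and are made at all times.

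The stem-loop is shown first, since it is the feature that most of these genes share and that few other genes have. In GENCODE M21 transcripts of the build GRCm38, 46 of the 68 genes held a match to the stem-loop, against 58 of all 55341 genes with a transcript (0.105%). The sequence below is written 5′ to 3′ as DNA, with the 4 bases of the loop in capitals, and the 6 bases on either side pair with each other.
Most common form, in 3 H1, 10 H2A, 8 H2B and 5 H3 genes: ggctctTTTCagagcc
Most common form in H4 genes, in 7 of them: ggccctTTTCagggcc
Form with another last loop base, in 1 H1, 2 H2B and 3 H3 genes: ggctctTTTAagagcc
Form of the H4 genes Hist1h4i and Hist2h4: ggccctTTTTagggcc
Form of the H4 genes Hist1h4b and Hist1h4j: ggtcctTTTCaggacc
The first and the second form differed in the stem and not in the loop, and the second was found in H4 genes only among the 68. Of the 46 genes with a match, 22 had a transcript that ended within 60 bases of the stem-loop, and in the other 24 each annotated transcript ran on for more than 60 bases. For the remaining 22 genes no match was found, and many of these transcript models were no longer than a coding sequence, with a median length of 408 bases over the 22.

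Promoters were read from the RefSeq table for GRCm38.p6, which had a window of 250 bases before to 50 bases after the start for 61 of the 68 genes. Windows were searched on both strands for CCAAT, for the TATA element TATAAA, for the octamer ATGCAAAT and for the H1 box AAACACA, each motif on its own, so that a base could be part of more than 1 match. A match of the letters counted at any place in the window, and its distance from the start was not used. The 5 windows below are those of the genes whose values stand out further on, with every match in capitals. Hist1h2bm had the largest fold change among the genes called, Hist1h1a the largest fold change among H1 genes, Hist1h2ak stands head to head with Hist1h2bn, Hist1h4i was the gene called lower and Hist1h2ba was read only in mice labelled control.
Hist1h2bm, chr13:21721794-21722093, forward strand: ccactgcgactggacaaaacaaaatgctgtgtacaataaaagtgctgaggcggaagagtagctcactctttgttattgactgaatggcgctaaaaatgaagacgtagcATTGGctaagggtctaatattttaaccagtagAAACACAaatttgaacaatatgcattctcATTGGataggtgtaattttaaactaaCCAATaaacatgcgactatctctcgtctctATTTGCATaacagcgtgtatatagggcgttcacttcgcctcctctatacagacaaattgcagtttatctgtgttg
Hist1h1a, chr13:23763418-23763717, forward strand: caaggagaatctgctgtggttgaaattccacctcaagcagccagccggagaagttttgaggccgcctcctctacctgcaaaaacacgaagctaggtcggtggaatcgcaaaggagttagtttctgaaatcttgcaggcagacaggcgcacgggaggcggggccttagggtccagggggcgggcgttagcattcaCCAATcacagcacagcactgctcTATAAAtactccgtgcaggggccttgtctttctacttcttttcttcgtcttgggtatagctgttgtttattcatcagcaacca
Hist1h2ak, chr13:21753863-21754162, reverse strand: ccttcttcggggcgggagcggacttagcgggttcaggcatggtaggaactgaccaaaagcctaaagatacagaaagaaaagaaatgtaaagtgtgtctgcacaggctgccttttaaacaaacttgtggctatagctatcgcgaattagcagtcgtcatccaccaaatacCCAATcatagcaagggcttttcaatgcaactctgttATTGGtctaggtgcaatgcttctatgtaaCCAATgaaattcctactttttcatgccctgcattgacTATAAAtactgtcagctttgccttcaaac
Hist1h4i, chr13:22041313-22041612, reverse strand: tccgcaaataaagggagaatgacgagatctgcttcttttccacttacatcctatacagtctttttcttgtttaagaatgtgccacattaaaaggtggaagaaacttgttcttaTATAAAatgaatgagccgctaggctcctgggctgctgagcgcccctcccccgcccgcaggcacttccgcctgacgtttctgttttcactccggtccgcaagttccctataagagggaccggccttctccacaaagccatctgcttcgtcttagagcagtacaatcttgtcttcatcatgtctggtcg
Hist1h2ba, chr13:23934107-23934406, reverse strand: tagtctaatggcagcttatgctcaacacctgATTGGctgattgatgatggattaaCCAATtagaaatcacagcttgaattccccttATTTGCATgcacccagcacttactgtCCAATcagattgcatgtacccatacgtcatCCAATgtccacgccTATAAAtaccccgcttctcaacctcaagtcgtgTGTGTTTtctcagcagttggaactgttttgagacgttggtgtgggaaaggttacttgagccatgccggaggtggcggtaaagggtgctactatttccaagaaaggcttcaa
CCAAT was in all 6 H1, 17 H2A, 16 H2B and 10 H3 windows and in 3 of 12 H4 windows, and 37.9% of all 27025 promoters of the table held it. The octamer was in 7 of 17 H2A and 6 of 16 H2B windows and in no window of the other types, against 1.75% of all promoters. AAACACA was in 5 of 6 H1 windows, against 7.14% of all promoters, and Hist1h1a was the H1 gene without it. TATAAA was in 40.0% of H3 windows, 50.0% of H2B, 64.7% of H2A and 66.7% each of H1 and H4 windows, against 14.2% of all promoters. The gene called lower, Hist1h4i, held TATAAA and none of the other 3 motifs, and Hist1h2ba held all 4.

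Total counts per library lay between 5703775 and 7095141. Tbx5, the gene targeted in these mice, had 1195 to 1505 reads in mice labelled control and 1010 to 3524 in mice labelled mutant, and was higher in the latter (log2 fold change 0.94 ± 0.15 (SE), adjusted p = 0.000495 by edgeR's quasi-likelihood test), which goes against the label. Since reads over the whole gene do not show whether exon 3 was lost, groups are named by their labels and each direction is relative to those labels. Xist, the RNA of the inactive X chromosome, went against the labelled sex in all 4 mice labelled control, with 10149 and 7850 reads in M1 and M2 but 5 and 14 in F1 and F2, and followed it in the mice labelled mutant. In the mouse labelled mutant M3, 38.9% of the counts were Rn45s, the ribosomal RNA precursor, against at most 1.49% in every other library. Of 7 atrial cardiomyocyte markers 1 rose, Tnnt2, by 1.12 on the log2 scale, and 3 fell, Myl7, Nppa and Sln. Myl7, the atrial myosin light chain, fell by 2.73 on the log2 scale (SE 0.17, adjusted p = 9.36e-08). Of 2 ventricular markers, Irx4 was at or near 0 in all libraries and Myl2 rose by 2.10 (SE 0.40, adjusted p = 0.00156 by edgeR).

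Values below are CPM, reads scaled to a common library size after TMM, unless raw reads are named. All 68 genes together took 369, 510, 348 and 448 CPM in the mice labelled control M1, M2, F1 and F2. In mice labelled mutant the sum lay between 688 and 1195 CPM, with a median of 831. The lowest mouse labelled mutant was above the highest mouse labelled control. The mean was 419 ± 74.6 CPM (SD, n = 4) against 886 ± 203 CPM (SD, n = 6), a ratio of 2.12. Mice M2 and M3 held the highest sums among the mice labelled mutant, and M2 or M3 was the highest library for 45 of the 49 genes tested. Without M2 the ratio was 1.98, and without M3, the library rich in Rn45s, it was 2.03.

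Of the 68 genes, 7 had no read in any library, 12 had reads but did not pass the filter on low counts, and 49 were tested. A call needed an adjusted p under 0.05, a fold change over 1.5 in either direction and, in mice labelled control, a mean above 1 of the signal that the authors deposited. By that rule 38 of the 49 were called higher and 1 lower in mice labelled mutant, where over all 13084 genes tested 8.50% were called higher, 7.16% lower and 15.7% in either direction. For 37 of the 49 every mouse labelled mutant was above every mouse labelled control, and for 1 every one was under, where over all genes tested 11.7% were above and 22.7% were apart in either direction. The family was picked on this contrast, so these counts describe it and are no test of it. The median log2 fold change of the 49 was 2.19, beside -0.005 over all genes tested. Over all genes the log2 fold change also went with transcript length (Spearman correlation -0.31 across genes, which are not independent), with higher values for shorter transcripts, and histone transcripts are short. With that trend removed 35 of the clustered histone genes were called, and the median over all of them tested, called or not, was 1.88.

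The filter bears on these counts. Only 19 of the 49 had 10 or more reads in each of the 4 libraries labelled control, and the other 30 had a library labelled control under that. Of the 19, 13 were called higher, 1 lower and 5 were not called, where over all genes tested 8.50% were higher and 7.16% lower. The groups overlapped for 8 of the 19, and the median log2 fold change of the 19 was 0.76. The 30 others include 25 of the genes called higher. With a mean count of at least 50 over all libraries, 17 genes were left, of which 11 were called, and the median was again 0.76.

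**Figure D1:**
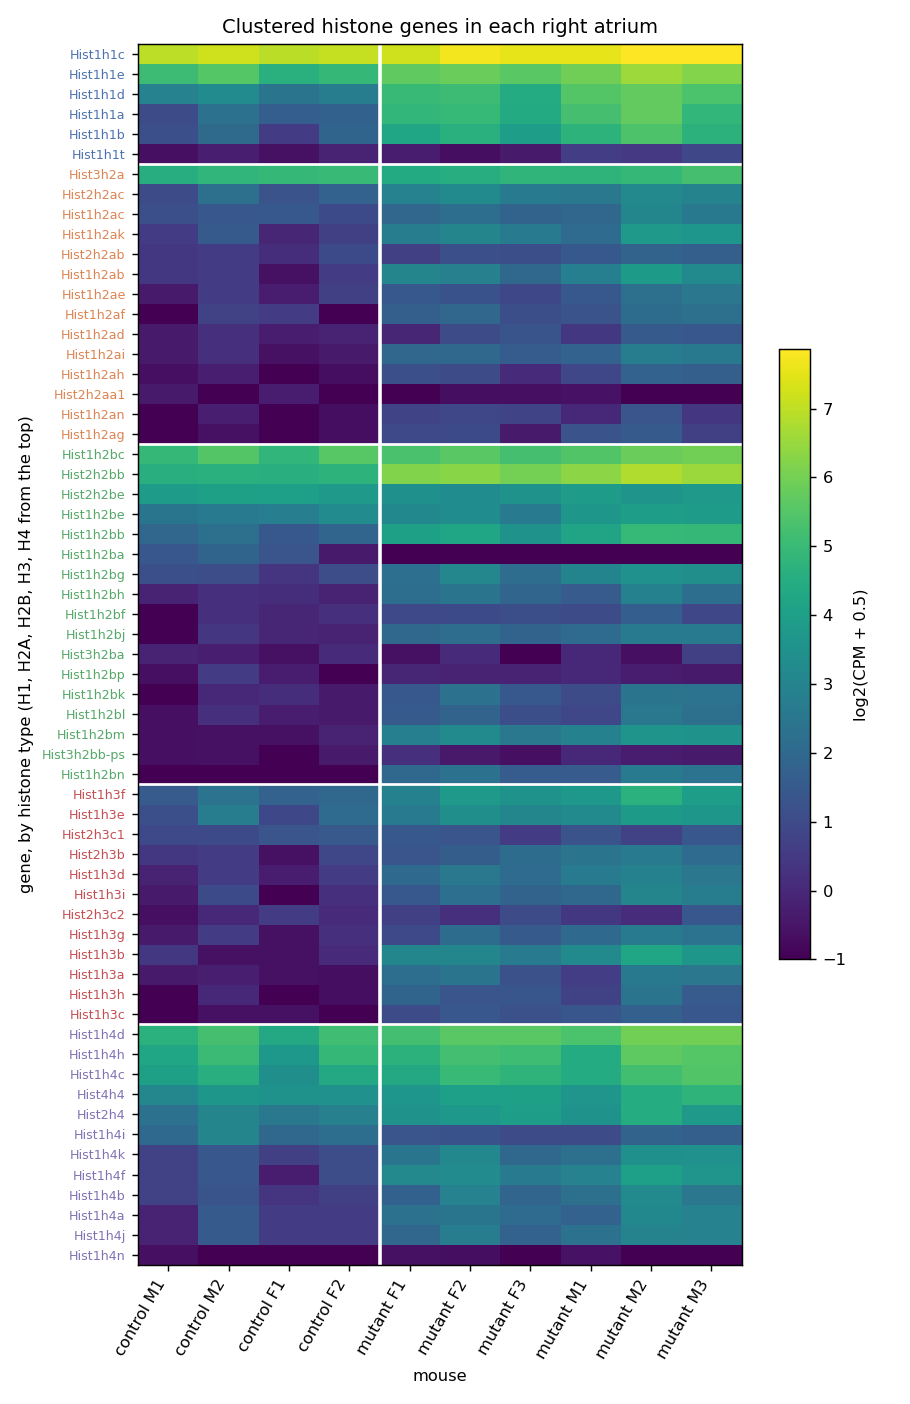
Level of the 61 clustered histone genes with reads in each of the 10 mice, as log2(CPM + 0.5) on the colour scale, with a white vertical line between the 4 mice labelled control and the 6 labelled mutant and white horizontal lines between histone types. Genes are ordered by their mean in mice labelled control within a type. Genes at the top of each block are bright in all mice, most genes lower in a block are brighter in the mice labelled mutant, and Hist1h2ba and Hist1h4i are darker there.

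H1 genes took the largest share of the family's reads, 43.0% in mice labelled control and 40.7% in mice labelled mutant. Their sum was 179 ± 23.4 CPM (SD, n = 4) against 359 ± 71.3 CPM (SD, n = 6), a ratio of 2.00, and the groups did not overlap. Hist1h1c, which encodes the somatic linker histone H1.2, was the most abundant gene of the family, at 127, 148, 123 and 136 CPM in mice labelled control and 150 to 232 CPM in mice labelled mutant, with a median of 198. All 6 mice labelled mutant were above the 4 labelled control. Its log2 fold change of 0.57 ± 0.12 (SE) was below the fold required, so it was not called. Hist1h1e, which encodes H1.4, had 33.2 ± 8.95 CPM (SD, n = 4) against 64.1 ± 17.3 CPM (SD, n = 6). The other 3 tested H1 genes started from far lower levels.

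Hist1h1a, which encodes H1.1, had 1.57, 4.47, 2.67 and 2.84 CPM in mice labelled control. In mice labelled mutant it had 20.9 to 53.0 CPM, with a median of 29.4. Groups were far apart, and the ratio of the means was 11.5, with a log2 fold change of 3.53 ± 0.30 (SE). Hist1h1d, which encodes H1.3, went from 6.83 ± 1.78 CPM (SD, n = 4) to 37.2 ± 10.9 CPM (SD, n = 6), a ratio of 5.45. Hist1h1b, which encodes H1.5 and was named after its values were seen, went from 2.35 ± 1.24 to 25.0 ± 8.94 CPM (SD, n = 4 and n = 6), a ratio of 10.6. Hist1h1t, the linker histone of male germ cells, had 1 to 3 reads per library labelled control and 1 to 6 per library labelled mutant and did not pass the filter. Hist1h1c and Hist1h1e together rank above the rest of the type in both groups, at 40.1% of all the family's reads in mice labelled control and 29.9% in mice labelled mutant.

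H2A genes summed to 37.8 ± 6.13 CPM (SD, n = 4) against 73.1 ± 19.5 CPM (SD, n = 6), a ratio of 1.94 with no overlap between the groups. In mice labelled control most of these reads came from Hist3h2a, an H2A gene outside the 2 larger clusters, with 22.3, 28.3, 29.3 and 31.3 CPM. In mice labelled mutant Hist3h2a had 20.8 to 37.6 CPM, with a median of 27.2. Both groups covered the same range, and its log2 fold change was -0.03 ± 0.15 (SE). Hist1h2ab, which encodes an H2A of the large cluster, went from 0.739 ± 0.392 CPM (SD, n = 4) to 7.87 ± 3.39 CPM (SD, n = 6). Hist1h2ak, also of the large cluster, went from 1.22 ± 0.781 to 8.15 ± 3.82 CPM, a ratio of 6.69. Hist2h2ac, the H2A gene of the cluster on chromosome 3 with the most reads, went from 2.68 ± 1.24 to 7.21 ± 1.42 CPM. All mice labelled mutant lay above all mice labelled control for these 3 genes. Of the 18 H2A genes 10 were tested, and 8 of these were called higher, where over all genes tested 8.50% were.

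H2B genes summed to 92.4 ± 13.6 CPM (SD, n = 4) against 211 ± 48.3 CPM (SD, n = 6), a ratio of 2.29 without overlap. Hist2h2bb, which supplied the largest part in mice labelled mutant and came after Hist1h2bc in mice labelled control, had 23.7, 24.3, 23.0 and 25.7 CPM in mice labelled control and 64.3 to 111 CPM in mice labelled mutant, with a median of 78.8. The 4 mice labelled control were close together and all under the 6 labelled mutant. Its exons overlap those of the genes Gm20628 and Gm42743, so its reads cannot be assigned to it alone, and 100% of the 50-base stretches of its transcript also occur in transcripts of those genes. For another pair of abundant H2B genes, neither with a stem-loop match in its transcript model, the groups overlapped. Hist1h2bc had 37.1 ± 10.0 CPM (SD, n = 4) against 48.2 ± 9.94 CPM (SD, n = 6). Hist2h2be had 14.7 ± 1.22 against 11.6 ± 1.87 CPM, a log2 fold change of -0.34 ± 0.13 (SE), and neither gene was called.

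Among H2B genes with few reads in mice labelled control, Hist1h2bm had 1, 1, 1 and 3 raw reads there. In mice labelled mutant it had 38 to 80 reads, or 5.30 to 11.6 CPM with a median of 7.83. No mouse labelled mutant came near those labelled control. The ratio of the pooled reads was 36.7, with an exact 95% counting interval of 16.7 to 101. Hist1h2bn had no read in any mouse labelled control and 14 to 39 reads in mice labelled mutant, 3.87 ± 1.30 CPM (SD, n = 6). Set against a floor of 3 reads per library, it was at least 8.59-fold higher. Hist1h2bb, an H2B gene with 14 to 26 reads per library labelled control, went from 3.26 ± 0.860 CPM (SD, n = 4) to 20.6 ± 7.74 CPM (SD, n = 6), a ratio of 6.32. Of the 19 H2B genes 12 were tested and 9 called higher, where over all genes tested 8.50% were. Hist1h2bn was not called because the authors' signal in mice labelled control was not above 1.

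One H2B gene went the other way, although it did not pass the filter. Hist1h2ba, which encodes an H2B variant of the testis and was named after its values were seen, had 15, 19, 13 and 2 reads in the mice labelled control M1, M2, F1 and F2. It had 0 reads in all 6 mice labelled mutant, so against a floor of 3 reads per library it was at least 3.72-fold lower. Reads of Hist1h2ba were present in mice labelled control of both labelled sexes. Its neighbour on the other side of their shared promoter, the testis gene Hist1h2aa, had no read in any library.

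H3 genes had the lowest level and the largest ratio of the 5 types. Their sum was 8.72, 18.5, 8.47 and 14.6 CPM in mice labelled control M1, M2, F1 and F2, and 42.0 to 98.0 CPM in mice labelled mutant, with a median of 57.0. The groups lay well apart, and the ratio of the means was 4.96. H3 took 2.92% of the family's reads in mice labelled control and 6.92% in mice labelled mutant. Hist1h3b, which like the other genes of the large cluster encodes a replication-dependent H3, had 0.430 ± 0.336 CPM (SD, n = 4) against 10.2 ± 4.44 CPM (SD, n = 6), a ratio of 23.7. Hist1h3f went from 3.39 ± 0.940 to 14.0 ± 5.98 CPM and Hist1h3d from 0.671 ± 0.349 to 5.12 ± 1.27 CPM. For Hist1h3e, 5.68 CPM in the mouse labelled mutant F1 was under 6.29 CPM in the mouse labelled control M2, so the groups overlapped while the means were 3.30 and 9.81 CPM.

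A further 3 H3 genes had 0 to 3 reads per library labelled control. Hist1h3c had 2 reads over the 4 libraries labelled control and 78 over the 6 labelled mutant, a ratio of pooled counts of 28.0 with an exact 95% counting interval of 7.49 to 235. For Hist1h3a the reads were 6 and 138, a ratio of 16.5 with an interval of 7.39 to 45.7. Hist1h3h had 4 and 99 reads, a ratio of 17.7 with an interval of 6.72 to 66.4, and 3 of the 4 reads were from the mouse labelled control M2. Its log2 fold change was 3.97, and 5.31 without M2. Hist1h3c and Hist1h3h were not called because their signal in mice labelled control did not reach the level required. The H3 gene Hist2h3c1 of the cluster on chromosome 3 had 1.81 ± 0.425 CPM (SD, n = 4) against 1.74 ± 0.532 CPM (SD, n = 6), with overlapping groups.

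H4 genes were the one type whose summed level overlapped between the groups. It was 79.4, 132, 66.5 and 111 CPM in mice labelled control M1, M2, F1 and F2, and 131 to 247 CPM with a median of 170.5 in mice labelled mutant. The mouse labelled control M2 was above the mice labelled mutant F1 and M1. Hist1h4d, the H4 gene with the most reads, had 24.6, 37.9, 19.8 and 34.5 CPM against 36.7 to 62.6 CPM, with a median of 47.5. Hist1h4h had 23.2 ± 9.24 CPM (SD, n = 4) against 35.6 ± 11.4 CPM (SD, n = 6), Hist1h4c had 17.4 ± 5.64 against 29.7 ± 8.88 CPM, and Hist4h4 on chromosome 6 had 10.5 ± 1.84 against 17.3 ± 5.92 CPM. All 4 of these H4 genes overlapped between the groups. Hist1h4d, Hist1h4c and Hist4h4 were called, with log2 fold changes of 0.76 ± 0.19, 0.76 ± 0.24 and 0.71 ± 0.22 (SE), and Hist1h4h was not.

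The 1 clustered histone gene called lower was the H4 gene Hist1h4i. It had 25, 46, 22 and 30 reads in mice labelled control and 9 to 21 in mice labelled mutant, or 3.57, 7.61, 3.45 and 4.06 CPM against 1.53 to 3.06 CPM with a median of 1.96. All 6 mice labelled mutant were under all 4 labelled control, and the log2 fold change was -1.14 ± 0.29 (SE). Of the 50-base stretches of its transcript 28.9% also occur in 11 other genes, H4 genes among them. Its fold change stands beside a median of 1.23 on the log2 scale for the 11 H4 genes tested. H4 was the type with the lowest median, while those of H1, H2A, H2B and H3 were 2.44, 2.26, 2.82 and 2.85. The types differed in how many tested genes had a library labelled control with under 10 reads. These were 1 of 5 in H1, 7 of 10 in H2A, 7 of 12 in H2B, 10 of 11 in H3 and 5 of 11 in H4. The part of the read level in the order of the medians was not tested.

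**Figure D2:**
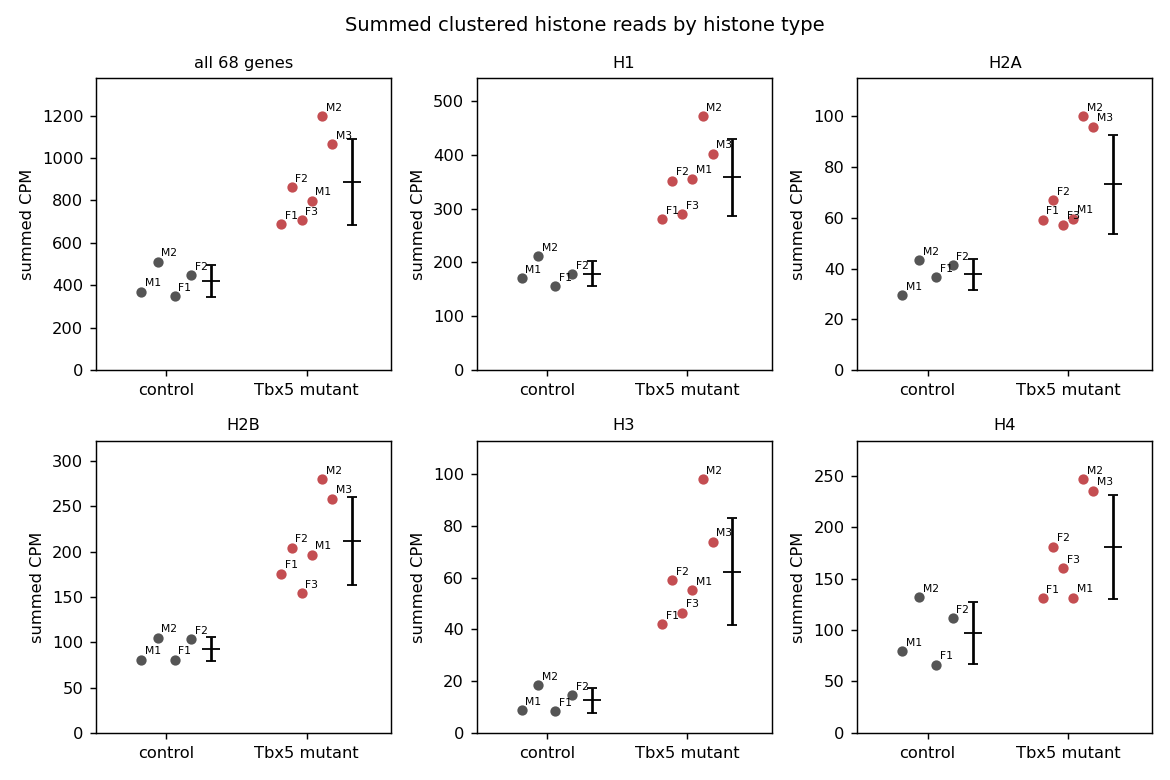
Summed CPM of all 68 genes and of each histone type in the 10 mice, with a point per mouse marked by its replicate label, and the mean with its SD as a black bar beside each group (n = 4 labelled control, n = 6 labelled mutant). The points of mice labelled mutant are above those of mice labelled control in each panel but H4, where the mouse labelled control M2 at 132 CPM is above the mice labelled mutant F1 and M1.

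Genes with higher levels in mice labelled control had smaller ratios. The 10 genes with a mean of 10 CPM or more there summed to 351 ± 53.9 CPM (SD, n = 4) against 565 ± 109 CPM (SD, n = 6), a ratio of 1.61. Of the 10, 5 were called higher, where over all genes tested 8.50% were. The 51 genes with reads and a lower mean summed to 68.4 ± 21.3 against 322 ± 100 CPM, a ratio of 4.70. Those 51 genes held 16.1% of the family's reads in mice labelled control and 35.8% in mice labelled mutant. Groups of genes formed on the level in mice labelled control favour high ratios among low genes, so this is a description only.

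**Figure D3:**
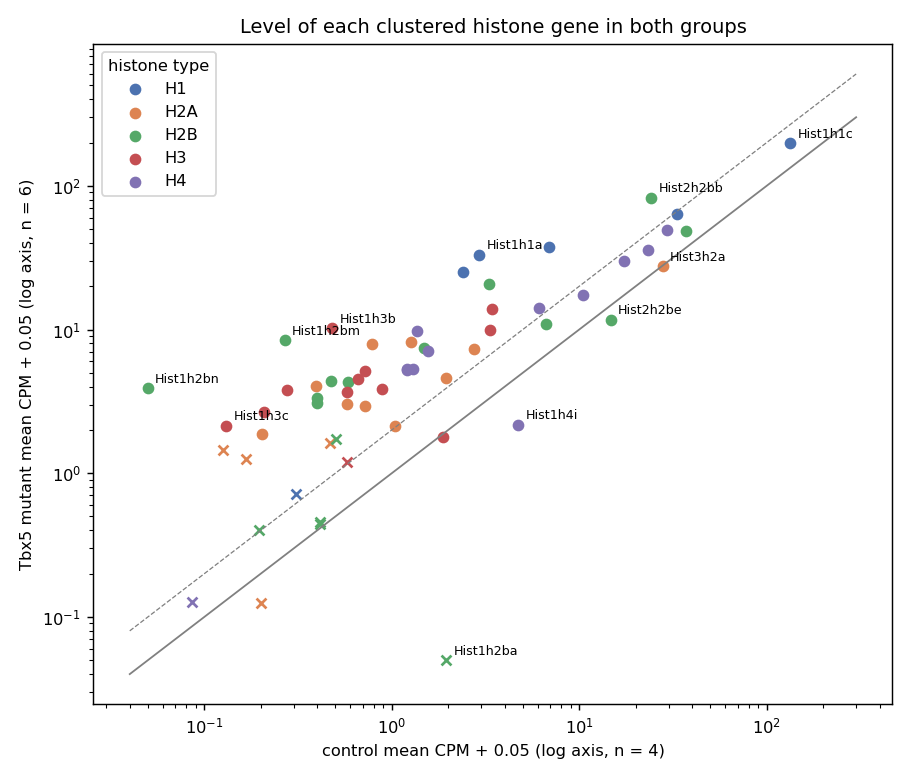
Mean CPM of each clustered histone gene in mice labelled mutant (n = 6) against mice labelled control (n = 4), both plus 0.05 and on log axes, coloured by histone type, with circles for the 49 genes tested and crosses for the 12 with reads that did not pass the filter. The solid line marks equal levels and the dashed line a ratio of 2. Genes at the right lie mostly between the lines, with Hist2h2bb above the dashed line and Hist2h2be under the solid line, most genes with low levels in mice labelled control lie above the dashed line, and Hist1h4i and Hist1h2ba also lie below the solid line.

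Compared per length, as CPM per kb of exon sequence, Hist1h1c was highest in mice labelled control at 85.5, followed by Hist2h2bb at 63.5, Hist1h4h at 49.3, Hist1h2bc at 32.1 and Hist1h4d at 25.6. In mice labelled mutant Hist2h2bb was first at 217 CPM per kb, followed by Hist1h1c at 127 and Hist1h4h at 75.7. Hist1h1a came next there at 44.7 CPM per kb and was not among the first 10 in mice labelled control. These values use the annotated exons, whose ends differ between genes by whether the model stops at the stem-loop.

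Sums were also taken by the end of the transcript model. Genes with a model that ended within 60 bases of the stem-loop summed to 36.1 ± 13.7 CPM (SD, n = 4) against 125 ± 40.2 CPM (SD, n = 6), a ratio of 3.46. Genes whose models ran on past the stem-loop summed to 293 ± 45.1 against 515 ± 108 CPM, a ratio of 1.76. Genes without a match summed to 90.1 ± 16.2 against 246 ± 59.6 CPM, a ratio of 2.73. This split was made after the values were seen, and it is also a split by level. Of the tested genes, 9 of 12 with a model ending at the stem-loop, 9 of 21 with a longer model and 12 of 16 without a match had a library labelled control with under 10 reads, so the part of the model's end was not tested. Reads of these libraries do not show which end an mRNA had.

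By location, 54 of the genes lie at chr13:21715763-23934851, 10 at chr3:96219865-96270132, 3 on chromosome 11 and 1 on chromosome 6. The genes on chromosome 13 had a ratio of summed levels of 2.18 and 32 of 40 tested were called higher. Those on chromosome 3 had a ratio of 2.40, with 5 of 7 called higher, where over all genes tested 8.50% were. The means of the sum on chromosome 3 differed by 72.5 CPM. Of these, 58.4 CPM were counted for Hist2h2bb, whose reads cannot be assigned to it alone. The 3 genes on chromosome 11 summed to 28.3 ± 3.89 CPM (SD, n = 4) against 28.2 ± 6.06 CPM (SD, n = 6), a ratio of 0.996, and the groups overlapped.

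On chromosome 13, 9 pairs of an H2A and an H2B gene stand head to head, with promoter windows that overlap by 220 to 279 bases, as in the window printed for Hist1h2ak, which overlaps that of Hist1h2bn by 263 bases. In 7 of the 9 pairs both genes had the higher mean in mice labelled mutant. Hist1h2ae and Hist1h2bg went from 0.669 and 1.44 CPM to 2.87 and 7.40 CPM. For Hist1h2ai and Hist1h2bl the means were 0.344 and 0.347 CPM against 3.98 and 3.04 CPM, and both genes of these 2 pairs were called higher. In the pair of Hist1h2an and Hist1h2bp the means were 0.117 against 1.20 CPM for the former and 0.362 against 0.395 CPM for the latter. Of the 2 pairs outside the 7, Hist1h2ao with Hist1h2bq had no reads and Hist1h2aa with Hist1h2ba was described above. These pairs were named after their values were seen.

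Sequence shared between members limits how reads could be assigned. At least 1 stretch of 50 bases was shared with another gene in 64 of the 68 genes, 12 genes shared 90% or more of their stretches, and an exon overlapped another annotated gene in 24. The 7 genes without reads were Hist1h2aa, Hist1h2ao, Hist1h2ap, Hist1h2bq, Hist1h2br, Hist1h4m and Hist2h2aa2, and apart from Hist1h2aa, at 23.8%, each shared at least 88.7% of its stretches. A count of 0 allows up to 3 reads, or 0.40 to 0.82 CPM depending on the library. The 34 genes with under 50% shared stretches had a summed level of 375 ± 65.6 CPM (SD, n = 4) against 699 ± 154 CPM (SD, n = 6), a ratio of 1.87. The other 34 had 44.2 ± 9.06 against 187 ± 51.0 CPM, a ratio of 4.23. The H4 genes Hist1h4a and Hist1h4j had the same read count in all 4 libraries labelled control and in 1 labelled mutant, at 3, 14, 6 and 7 reads in the former.

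Genes of the histone supply outside the clusters were called by the same rule over all genes. Of 20 histone genes listed as replication-independent 16 were in the table and 12 were tested, of which 3 rose, where 8.50% of all genes did. The list includes H2afx, although its stem-loop match is a feature of the clustered genes. H2afx, the H2A variant phosphorylated at DNA breaks and one of the 12 genes outside the family with a stem-loop match, rose from 2.55 ± 0.369 to 6.00 ± 1.93 CPM (SD, n = 4 and n = 6; log2 fold change 1.23 ± 0.26, adjusted p = 0.00304 by edgeR). H2afz, the variant H2A.Z, rose by a log2 fold change of 1.01 ± 0.33 (adjusted p = 0.0331), and H2afy3 by 0.61 ± 0.22 (adjusted p = 0.0470). Leaving out 1 mouse ended the call of H2afz for 7 of the 10 mice and that of H2afy3 for 8, at log2 fold changes of 0.86 to 1.05 for H2afz and of 0.53 to 0.68 for H2afy3. With DESeq2 (adjusted p = 0.106 by its Wald test), with limma or with the length trend removed H2afy3 was not called either. In mice labelled female alone the call of H2afx was lost, at 1.06. H3f3b, a gene for the replacement histone H3.3, had 81.6 ± 8.61 against 109 ± 7.40 CPM, which passed the p (adjusted p = 0.00324) and not the fold. The other H3.3 gene H3f3a, at 0.40 ± 0.15 on the log2 scale, H2afj, at 0.39 ± 0.15, H1f0, the linker histone of resting cells, at 0.28 ± 0.09, H2afv, at -0.02 ± 0.12, and the centromeric Cenpa, at -0.30 ± 0.16, were not called. The median over the 12 was 0.40. H1foo and H2afb1 had no reads.

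Of 25 tested genes for histone mRNA synthesis and processing 4 rose and 1 fell, beside the 15.7% of all genes that were called, with a median log2 fold change of 0.12. Slbp, whose product binds the stem-loop, had 7.57, 8.77, 8.62 and 7.99 CPM in mice labelled control and 12.0 to 16.02 CPM with a median of 14.3 in mice labelled mutant. No mouse labelled mutant overlapped those labelled control (log2 fold change 0.80 ± 0.12, adjusted p = 0.000246 by edgeR). Ccne1, which encodes cyclin E1, rose by 1.42 ± 0.32 (adjusted p = 0.00471), E2f1, a transcription factor of S phase entry, by 1.19 ± 0.39 (adjusted p = 0.0312) and Lsm10, a subunit of the U7 particle that cuts histone mRNAs, by 0.71 ± 0.20 (adjusted p = 0.0169). The call of E2f1 was lost when any of the 4 mice labelled control or M1 or M2 of those labelled mutant was left out, at 1.02 to 1.24. It was also lost with limma, at 0.98, and in mice labelled female alone, at 0.65. The call of Ccne1 was lost in mice labelled female alone, at 1.28. That of Lsm10 was lost without the mouse labelled control F1 at 0.63 and with the replicate block at 0.56. It was also lost with the length trend removed at 0.45 and in mice labelled male alone at 0.30. Pou2f1, which encodes the octamer-binding factor Oct-1, fell by 0.67 (SE 0.11, adjusted p = 0.000439). With the length trend removed its log2 fold change was -0.32 and in mice labelled female alone -0.49, both under the fold required. Npat, the coactivator of histone gene transcription, had 37.5 ± 4.30 against 31.0 ± 6.98 CPM (SD, n = 4 and n = 6) and was not called (adjusted p = 0.183).

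Of 25 tested histone chaperones 5 rose, where 8.50% of all genes did. The 5 were Chaf1a and Chaf1b, subunits of the chromatin assembly factor at replication forks, Asf1b, Mms22l and the helicase subunit Mcm2. Chaf1b had the largest log2 fold change of the 5 at 2.85 ± 0.49 (adjusted p = 0.000724 by edgeR) and Mms22l the smallest adjusted p at 0.000166 with 1.46 ± 0.21. In mice labelled male alone the calls of Chaf1b and Mms22l were lost, at 2.50 and 1.25. In mice labelled female alone that of Chaf1a was lost, at 0.82. The median over the 25 was 0.13. Of 30 S-phase genes 16 rose, against the same 8.50%, with a median over the 30 of 0.68. Uhrf1, which keeps DNA methylation through replication, rose from 1.36 ± 0.419 to 8.39 ± 3.00 CPM (SD, n = 4 and n = 6; log2 fold change 2.64 ± 0.32, adjusted p = 5.45e-05). Gins2, of the replicative helicase, rose by 3.11 ± 0.53 (adjusted p = 0.000661), Pole, the leading-strand polymerase, by 1.36 ± 0.19 (adjusted p = 0.000170), Pcna, the polymerase clamp, by 0.91 ± 0.15 (adjusted p = 0.000585) and Mcm2 by 0.80 ± 0.13 (adjusted p = 0.000598).

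All 8 genes of a list of G2 and M phase rose, where 8.50% of all genes tested did. The list was added after the values were seen, and its sum went from 18.2 ± 6.97 to 156 ± 70.8 CPM (SD, n = 4 and n = 6). The order of the mice differed between the sums. Among mice labelled mutant the sum over G2 and M phase was highest in M1, at 263 CPM, followed by F1 at 192, M2 at 189, F2 at 107, M3 at 104 and F3 at 78.7. The sum over the clustered histone genes was highest in M2, at 1195 CPM, followed by M3 at 1065, F2 at 863, M1 at 798, F3 at 708 and F1 at 688. Mouse F1 was thus behind only M1 in the former sum and last in the latter. Mki67 and Top2a made up most of the former sum in these mice, with 118 and 97.2 CPM in M1 and 82.3 and 78.4 CPM in F1. Of the other genes of that list, Bub1 was highest in M1 and the rest in M2. The sum over the S-phase genes was highest in M2, at 457 CPM, followed by F1 at 383, M1 at 371, M3 at 352, F2 at 333 and F3 at 313. In bulk tissue a larger number of cells that make these mRNAs and more mRNA in each such cell cannot be told apart.

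Of 6 RNAs without a poly(A) tail other than histone mRNAs, all but Terc were present in all libraries. Terc had 0 to 5 reads per library labelled control and 1 to 7 per library labelled mutant. Rnu12 was called lower, at a log2 fold change of -0.65 ± 0.17 (SE, adjusted p = 0.0122 by edgeR). Rpph1, the RNA of ribonuclease P, had 5366, 7605, 4390 and 7036 CPM in the mice labelled control M1, M2, F1 and F2, and 4406 to 13225 CPM in mice labelled mutant. Rpph1 had its highest value in the mouse labelled mutant M3. In mice labelled control the summed H4 level had the same order as Rpph1, with M2 highest and then F2, M1 and F1. The sums over H1, over H3 and over all 68 genes had that order too, and those over H2A and H2B did not. In mice labelled mutant the orders of Rpph1 and of the H4 sum differed, and the H4 sum was highest in M2. Taken relative to the reads of Rmrp, the RNA of a related ribonuclease, and Rpph1, the clustered histone reads were 43.0 to 56.7 per 1000 in mice labelled control and 55.5 to 122 in mice labelled mutant, a ratio of 1.74, and the lowest mouse labelled mutant, M3, was then under the highest labelled control, F1. Neither Rmrp nor Rpph1 was called (adjusted p = 0.304 and 0.343 by edgeR). On that scale the order of the mice labelled mutant was M1 at 122, M2 at 104, F1 at 91.2, F2 at 71.9, F3 at 57.2 and M3 at 55.5. The part of these RNAs in the result was not tested.

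**Figure D4:**
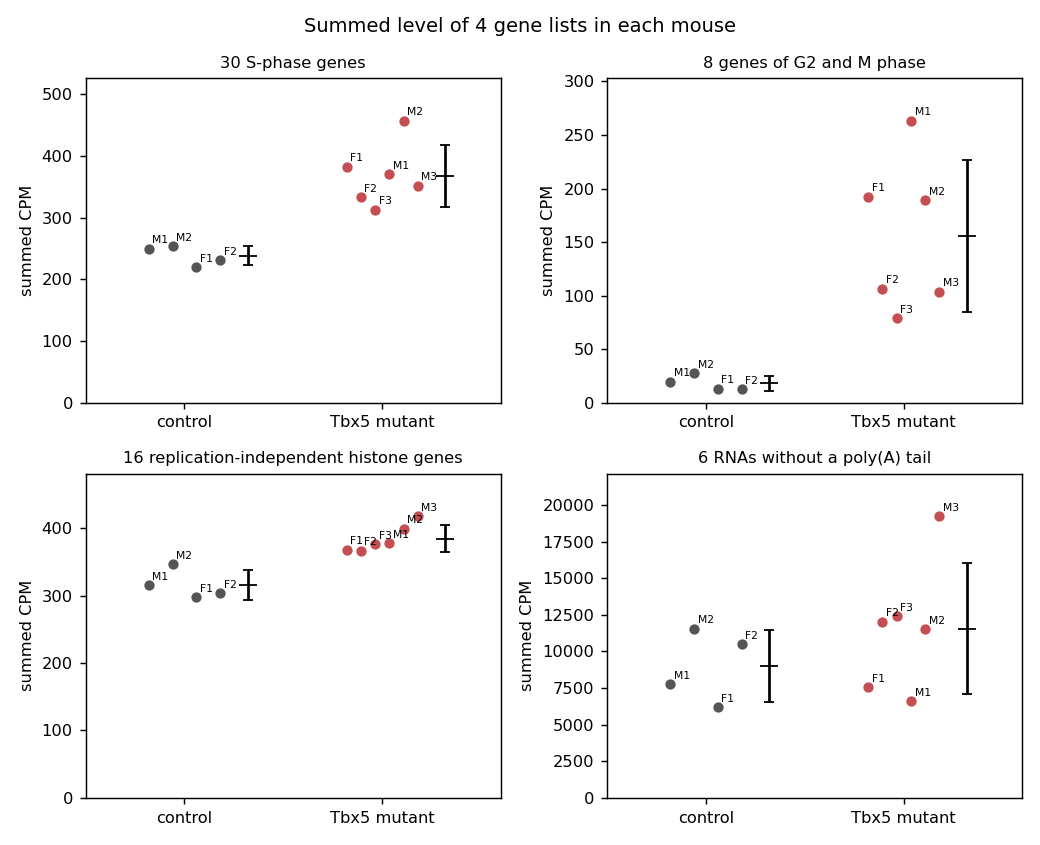
Summed CPM of 4 gene lists in the 10 mice, with a point per mouse marked by its replicate label, and the mean with its SD as a black bar (n = 4 labelled control, n = 6 labelled mutant). The sums over S-phase genes, over G2 and M phase genes and over replication-independent histone genes are higher in every mouse labelled mutant, while the sums over RNAs without a poly(A) tail overlap and M3 is highest at 19255 CPM.

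Markers of other cell types also differed between the labels. All 4 tested leukocyte markers of 8 in the table rose, where 8.50% of all genes tested did. The summed level of the leukocyte markers was 141 to 200 CPM in mice labelled control and 228 to 328 CPM in mice labelled mutant, while the T cell marker Cd3e and the B cell marker Cd79a were near 0. Of 4 fibroblast markers Col1a1, the collagen chain, rose. Dcn, at a log2 fold change of -0.01, Tcf21, at 0.57, and Pdgfra, at -0.40 (adjusted p = 0.0152 by edgeR), were not called. The sum over fibroblast markers was 2078 to 2549 against 2108 to 2784 CPM. Of 2 smooth muscle markers Acta2 rose and Myh11, at 0.23, was not called, with sums of 65.0 to 111 against 116 to 438 CPM. Of 3 endothelial and 3 mesothelial markers none was called by edgeR and 1 had an unadjusted p under 0.05, with sums of 665 to 879 against 750 to 878 CPM and of 259 to 273 against 152 to 305 CPM. Alas2 of 4 erythroid markers in the table rose, with sums of 10.2 to 14.6 against 9.90 to 43.7 CPM, and the globin genes Hba-a1 and Hba-a2 were at 0. Of 2 ventricular markers Myl2 rose, with sums of 1.71 to 6.63 against 6.51 to 33.7 CPM. The part of these cells in the histone result was not tested.

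Within the mice labelled mutant, males and females were compared, a contrast that did not enter the choice of the family and in which the labelled sex matched Xist. Of 12881 genes tested 8 had an adjusted p under 0.05, or 0.0621%, and none of the 50 clustered histone genes tested was among them. At an unadjusted p under 0.05 there were 17 of the 50, all lower in females, where over all genes 6.76% had such a p and 3.84% were also lower in females. Of the 50, 2 were higher in females, and the median log2 ratio of females over males was -0.53, beside 0.003 over all genes. Each gene of the G2 and M phase list was lower in females too, from -0.47 for Top2a to -1.27 for Ccnb1. S-phase genes went both ways, from -0.90 for Rrm2 to 0.24 for Prim1. The tested RNAs without a poly(A) tail were also lower in females, from -0.21 for Rmrp to -0.90 for Vaultrc5. The males include M3, the library with 38.9% Rn45s. The summed level of the clustered histone genes was 688, 863 and 708 CPM in females and 798, 1195 and 1065 CPM in males, so that F2 was above M1. The smallest adjusted p of a clustered histone gene was 0.456, that of Hist1h2be, an H2B gene named here after its value was seen, with a log2 ratio of -0.80 ± 0.20 (SE, by edgeR's quasi-likelihood test). With 3 mice per sex, a difference of this size did not pass the correction.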

How the data were processed

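The authors deposited 1 table of the series. It holds the count of reads per gene and library, whole numbers as deposited, and a signal that the authors made by dividing counts by a size factor per library. Its remaining columns are the authors' own comparison (log2 fold change, standard error, test statistic, p-values, fold change and base mean) and were not used. The submitters' processing notes name FastQC, TopHat2 2.0.11, featureCounts, DESeq2 and the build mm10, without roles, and strand settings are not given in the sources used here, so antisense and overlapping genes cannot be separated.

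The analysis used edgeR 4.0.16 (R 4.3.3) with filterByExpr and TMM scaling, and 4 libraries labelled control were compared with 6 labelled Tbx5 mutant by the quasi-likelihood test with a prior count of 0.125 and Benjamini-Hochberg adjustment over all genes tested. Standard errors were taken as the fitted log2 change divided by the root of its F value. The signal served only for the requirement of a mean over 1 in mice labelled control. Totals of 5703775 to 7095141 reads put 1 floor of 3 reads at 0.40 to 0.82 CPM, and intervals and floors cover counting error only. Nothing in the labels says more of the replicates than 1 mouse each. No 2 libraries of a group agreed within sampling noise (chi-square per degree of freedom at least 3.78 over 21 pairs).

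Members and lists were chosen with earlier results of these data known. Genes named are, per histone type, the 4 with most reads, the 6 largest increases and the 6 lowest fold changes, the members without reads, 10 fixed genes of the lists and up to 5 called genes per list, apart from those said to be named after their values were seen. Transcripts, stem-loops and 50-base stretches come from GENCODE M21 and promoters from RefSeq, both GRCm38, the assembly that mm10 names. limma 3.58.1 and DESeq2 1.42.0 were alternatives, with other scalings, filters and thresholds. Further alternatives were the labelled sex, a replicate block, each library left out, and removal of a length trend (lowess, span 0.4).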

Additional observations from a re-analysis of the deposited data

Results flagged for a closer look

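Among 143 sets of 4 or 6 values, 7 had a mouse far from the others of its group, where chance flags about 1 in 20 sets. Hist1h4i, the gene called lower, had 7.61 CPM (46 reads) in the mouse labelled control M2 and at most 4.06 CPM in the other 3, and without M2 its log2 fold change was -0.81. Hist1h2bm had 0.406 CPM (3 reads) in the mouse labelled control F2 and Hist1h2ab 0.157 CPM (1 read) in F1, both at the level of single reads. Uhrf1 had 1.99 CPM (12 reads) in the mouse labelled control M2 and Mms22l 3.14 CPM (22 reads) in M1, the nearest others being at 1.22 and 1.89 CPM. Chaf1b had 6.12 CPM (42 reads) in the mouse labelled mutant M2 and at most 2.68 CPM in the other 5. Adipocyte markers summed to 20.8 CPM in the mouse labelled mutant M2, the mouse with the highest sum of clustered histone reads, and to at most 2.51 CPM in the other mice labelled mutant.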

How the results depend on the processing

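In the 22 alternatives that fitted the counts anew, no change of sign was seen among the 39 clustered histone genes called, of which 12 were still tested with a mean count of at least 50. The 39 were called on these same counts, so this is no independent test of their sign. With 1 library left out, the number of clustered histone genes called lay between 36 and 41. The ratio of summed reads then lay between 1.98 and 2.29 and the median log2 fold change between 2.04 and 2.50. All genes called numbered 1807 to 2205, and the lists 1 to 3 replication-independent histone, 4 to 6 mRNA processing, 5 to 6 chaperone and 15 to 18 S-phase genes. The control mice M1, F1 and F2 and the mice labelled mutant M1, M2 and M3 each took the replication-independent genes to 1 when left out.

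A mean count of at least 50 gave 1284 genes, 11 clustered histone genes and 0, 3, 1 and 7 genes of the 4 lists in that order, with fewer genes tested. The median of 0.76 was taken over all clustered histone genes tested there, called or not. A fold over 2 gave 906 genes and 2 mRNA processing, 3 chaperone and 7 S-phase genes. An adjusted p under 0.01 gave 1 replication-independent and 3 mRNA processing genes, mice labelled female alone 1 and 2, mice labelled male alone 1 and the removed length trend 1 and 3. Each labelled sex alone gave 31 clustered histone genes. Xist went against the labelled sex in the mice labelled control. Each fit of 1 labelled sex therefore compared mice with many Xist reads to mice with few. The ratio of summed reads was 3.46 for models that end at the stem-loop and 2.73 for models without a match, a split chosen after seeing the data. H2afv turned to 0.017 with upper-quartile scaling, 0.175 in mice labelled male, and lay between -0.086 and 0.059 with 1 mouse left out. H2afz was lost under the replicate block, each labelled sex alone, the removed length trend and 7 left-out mice. H2afy3 was lost under the replicate block, each labelled sex alone and the removed length trend as well. Its call was also lost with DESeq2, with limma, with the labelled sex as a covariate and without the filter. The cause was not tested.

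Same-numbered mice did not deviate together (correlations -0.047 to 0.036 in 4 pairs), so the replicate block is not a pairing by design. It gave 37 clustered histone genes, 1957 genes in all and 1 replication-independent gene.

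Depth limits genes with under 10 reads per library.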
